A study of Mus musculus with 18 samples.

Results

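The 10 genes described here encode the transcription factors that set lipid synthesis in the liver and the proteins that hold or release them: Srebf1, Srebf2, Scap, Insig1, Insig2, Mlxipl, Mlx, Nr1h3, Pparg and Usf1. They were chosen by name, and every array probe that maps to 1 of them was taken, which gave 14 probes for 10 of the 21153 genes named on the array. Srebf2, Insig2, Mlxipl and Nr1h3 have 2 probes each and the other 6 genes have 1. Liver RNA came from male C57BL/6 mice without tumour, fed from 6 weeks of age a diet with 10% (LFD) or 60% (HFD) of its energy as fat. After 10 weeks on the diet, the LFD MTX50 and HFD MTX50 mice received 5 weekly intraperitoneal doses of methotrexate, an inhibitor of folate metabolism, at 50 mg/kg, and livers were taken 1 week after the last dose. The untreated groups held 4 mice each and the treated groups 5 each, and every mouse had its own array. The study asked how obesity and chemotherapy alter lipid metabolism in the liver, so the levels of these regulators were compared between the diets and, within each diet, between treated and untreated mice.

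SREBP proteins are made as precursors in the membrane of the endoplasmic reticulum. Scap, the sterol sensor, escorts them to the Golgi for cleavage when sterols are low, and Insig1 and Insig2 hold Scap back when sterols are high. SREBP-1c, from Srebf1, drives fatty acid synthesis, while SREBP-2, from Srebf2, drives cholesterol synthesis and uptake. ChREBP, from Mlxipl, binds DNA together with Mlx and turns on glycolytic and lipogenic genes when glucose is plentiful. LXR alpha, from Nr1h3, is a receptor for oxysterols and raises transcription of Srebf1 and of cholesterol export genes. PPAR gamma, from Pparg, is the main regulator of fat storage in adipocytes and is expressed at higher levels in fatty liver, and Usf1 is an E-box binding factor that acts on lipogenic promoters. The activity of most of these proteins is set after translation, by cleavage, ligands or movement into the nucleus, which an mRNA array does not measure.

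Promoters are shown for the 3 genes whose values carry the text below. The 2 probes of Mlxipl read the gene differently. Srebf1 and Insig1 were the members whose levels followed each other most closely from mouse to mouse. RefSeq (GRCm38.p6) lists start windows for all 10 genes, 20 windows in all, and the 250 bases before the start are printed 5′ to 3′ on the strand of the gene. Capitals mark an E-box (CACGTG), which ChREBP and Usf1 recognise, a CCAAT box (CCAAT, or ATTGG on the other strand) or a sterol regulatory element (TCACNCCA), each searched on both strands. The 2 Mlxipl starts lie 17001 bases apart on the plus strand, at chr5:135089640-135089889 and chr5:135106641-135106890.
Mlxipl, upstream start: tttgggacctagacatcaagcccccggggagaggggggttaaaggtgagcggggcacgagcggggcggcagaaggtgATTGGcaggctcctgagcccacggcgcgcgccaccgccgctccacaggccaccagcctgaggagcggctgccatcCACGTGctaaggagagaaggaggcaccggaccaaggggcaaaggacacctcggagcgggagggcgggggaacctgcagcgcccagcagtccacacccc
Mlxipl, downstream start: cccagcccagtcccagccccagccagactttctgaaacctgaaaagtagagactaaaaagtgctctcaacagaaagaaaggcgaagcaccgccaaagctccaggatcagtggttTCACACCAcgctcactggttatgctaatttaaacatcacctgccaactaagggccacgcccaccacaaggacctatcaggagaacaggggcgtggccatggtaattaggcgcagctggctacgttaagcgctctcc
Srebf1 (chr11:60210472-60210721, minus strand): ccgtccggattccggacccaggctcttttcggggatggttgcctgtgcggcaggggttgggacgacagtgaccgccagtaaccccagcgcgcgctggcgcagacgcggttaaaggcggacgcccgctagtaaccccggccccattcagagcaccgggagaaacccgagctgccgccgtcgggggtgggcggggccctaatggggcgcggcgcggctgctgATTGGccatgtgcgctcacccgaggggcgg
Insig1 (chr5:28071162-28071411, plus strand): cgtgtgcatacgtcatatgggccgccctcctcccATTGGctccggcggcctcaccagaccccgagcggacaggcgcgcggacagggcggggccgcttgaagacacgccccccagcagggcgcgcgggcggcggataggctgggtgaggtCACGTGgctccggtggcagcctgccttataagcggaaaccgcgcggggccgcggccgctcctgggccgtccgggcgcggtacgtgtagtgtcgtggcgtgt
The upstream start of Mlxipl holds an E-box whose first base is at −98 from the start and a CCAAT box at −173. The downstream start holds a sterol regulatory element at −136. Insig1 holds an E-box at −101 and a CCAAT box at −216. Of the 3 Srebf1 start windows, that shown holds a CCAAT box at −30, another holds a CCAAT box at −166, and the last holds no match. The E-box stood in 7.15% of all 32851 start windows of 300 bases and in 5 of the 20 windows of these genes, from Scap, Insig1, Mlxipl and Mlx. The 2 Scap windows overlap and hold the same E-box, which is counted in both. The CCAAT box stood in 37.4% of all windows and in 9 of the 20, and the sterol regulatory element in 4.36% of all windows and in 2 of the 20, from Srebf2 and Mlxipl. A match describes these letters only, and a window without one may hold a site spelled otherwise, which was not searched. The files do not tie a probe to a start.

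Levels are given as log2 of the processed spot intensity relative to the 75th percentile of the same array, so that 0 is the brightness of a probe at that percentile. All 14 probes were kept for testing, and 13 of them lay well above background on all 18 arrays. The exception is Usf1, which failed this on 1 array (LFD mouse 4) and whose intensity of 18.3 to 48.8 lies near the lowest intensity called well above background on an array, 13.6 to 25. A gene was read on its brightest probe and called at an adjusted p below 0.05 in a limma model of the 4 groups, with Benjamini-Hochberg adjustment over 35738 probes. The label of the tissue was borne out by Alb, the main hepatocyte secretory product, whose group means were 8.05 to 8.32. In bulk liver, fewer cells of a type and less RNA per cell cannot be told apart. Changes on these arrays also moved with brightness: in HFD vs LFD the median log2 difference was 0.42 in the dimmest 10% of probes and −0.23 in the brightest 10%, and in LFD MTX50 vs LFD it was 0.52 and −0.06. The arrays lie on 6 slides, and HFD with HFD MTX50 is the only pair of groups that shares one, so slide and group cannot be told apart elsewhere, the comparison of the treated groups with each other included.

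**Figure D1:**
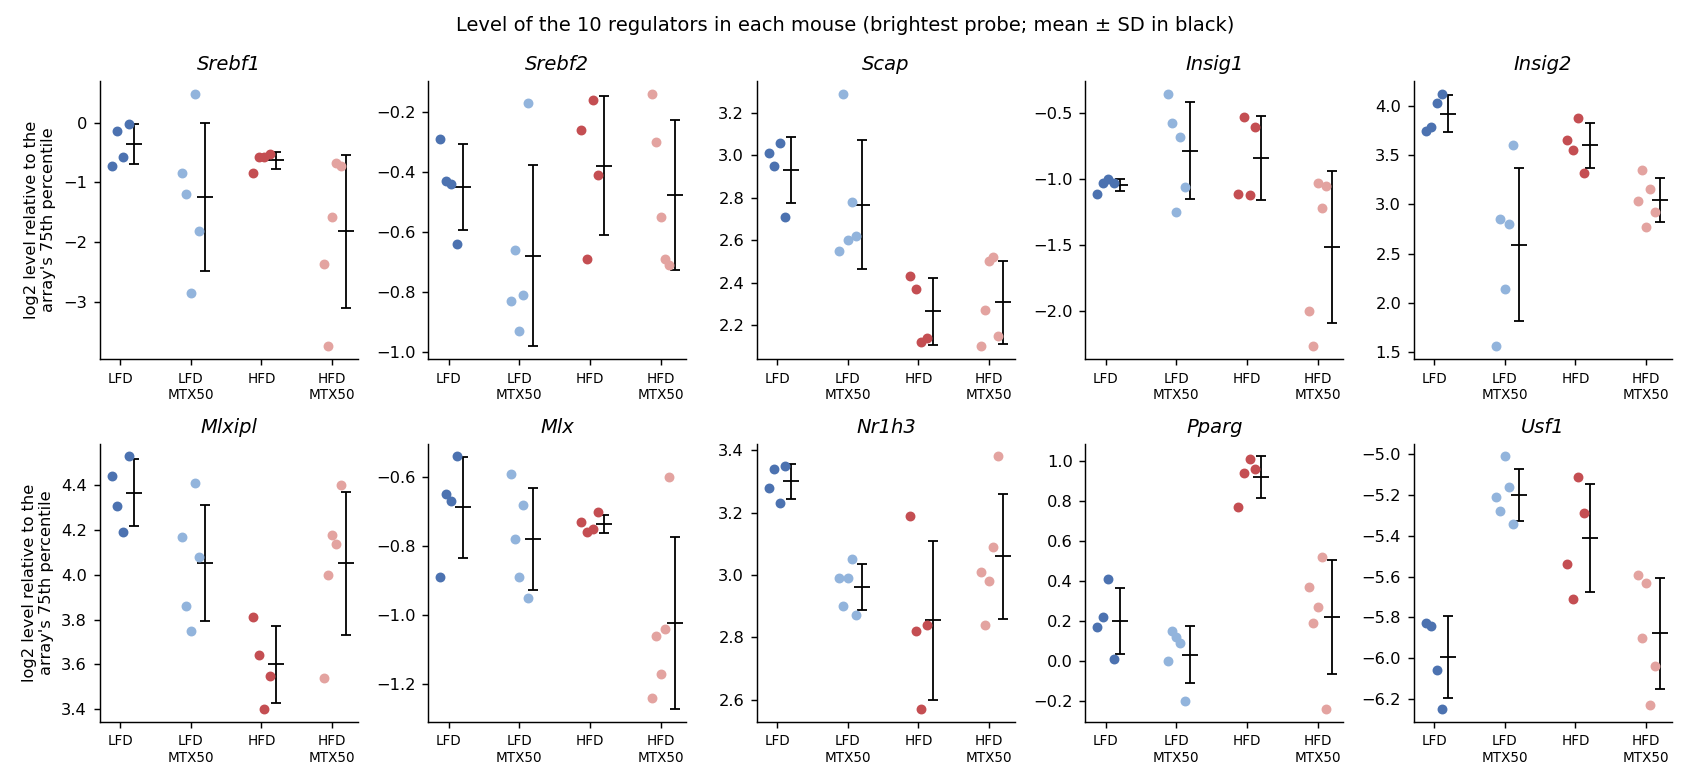
Levels of the 10 genes on their brightest probes in each mouse (points) with the group mean and SD (bars), by group, as log2 intensity relative to the 75th percentile of the array. Pparg is higher in all 4 HFD mice than in any other mouse, Scap is lower in both HFD groups, and Srebf1 is spread from −3.75 to 0.49 in the treated mice.

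In HFD vs LFD, 5 of the 10 genes differed (28.3% of all genes tested did): Pparg and Usf1 rose, and Scap, Mlxipl and Nr1h3 fell. In the same comparison 18% of all genes rose and 10.4% fell. The median log2 difference over the 10 genes was −0.16, against 0.08 over all genes. In each of the 5 the HFD mice and the LFD mice did not overlap, as held for 40.3% of all genes. Among all genes called, 63.4% were higher in HFD, but 44.8% with arrays scaled to their median and 47.4% after quantile normalization, so a direction over many genes depends on the scaling. Once slides entered the model as random blocks, 0 of the 5 calls remained and 1.94% of all genes passed.

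In HFD MTX50 vs HFD, 1 gene of the 10 differed (11% of all genes did, 4.83% rising and 6.13% falling): Pparg fell. It was also the only gene of the 10 whose groups did not overlap (11.4% of all genes), while 5 genes had an unadjusted p below 0.05. The median over the 10 genes was −0.38 and that over all genes −0.04. The share of called genes that were higher was 44.0% and became 53.2% with median scaling. A fit of these groups alone called 0 genes of the whole table, the 10 included.

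In LFD MTX50 vs LFD, 3 of the 10 genes differed (28.1% of all genes, 17.6% rising and 10.5% falling): Usf1 rose, and Insig2 and Nr1h3 fell. Their groups did not overlap, as held for 29.1% of all genes. The median was −0.20 over the 10 genes and 0.10 over all genes. The higher share of all calls was 62.7%, and 44.7% with median scaling. Once slides entered as random blocks 0 of these 3 calls remained.

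The effect of methotrexate differed between the diets for 4 of the 10 genes (26.8% of all genes), taking the effect in HFD minus that in LFD. Mlxipl and Nr1h3 had the higher effect in HFD (8.66% of all genes) and Pparg and Usf1 the lower (18.1%). Of all genes called in this test 32.4% were higher, and 51.0% with median scaling. The 3 comparisons within and between diets share their untreated groups with it, so the counts are not independent of each other. Between the treated groups, HFD MTX50 vs LFD MTX50, 3 of the 10 genes were lower (16.1% of all genes differed, 7.37% higher and 8.75% lower): Scap, Insig1 and Usf1. The groups did not overlap for 2 of them, Scap and Usf1 (6.13% of all genes). HFD MTX50 differed from LFD for 1 gene, Scap (6.85% of all genes, 3.81% higher and 3.04% lower). Those groups did not overlap for 2 genes, Scap and Insig2 (12.7% of all genes). The share of all genes called between HFD MTX50 and LFD rose to 52.7% with normexp background modelling, and fell to 0.0153% once slides entered as random blocks.

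**Figure D2:**
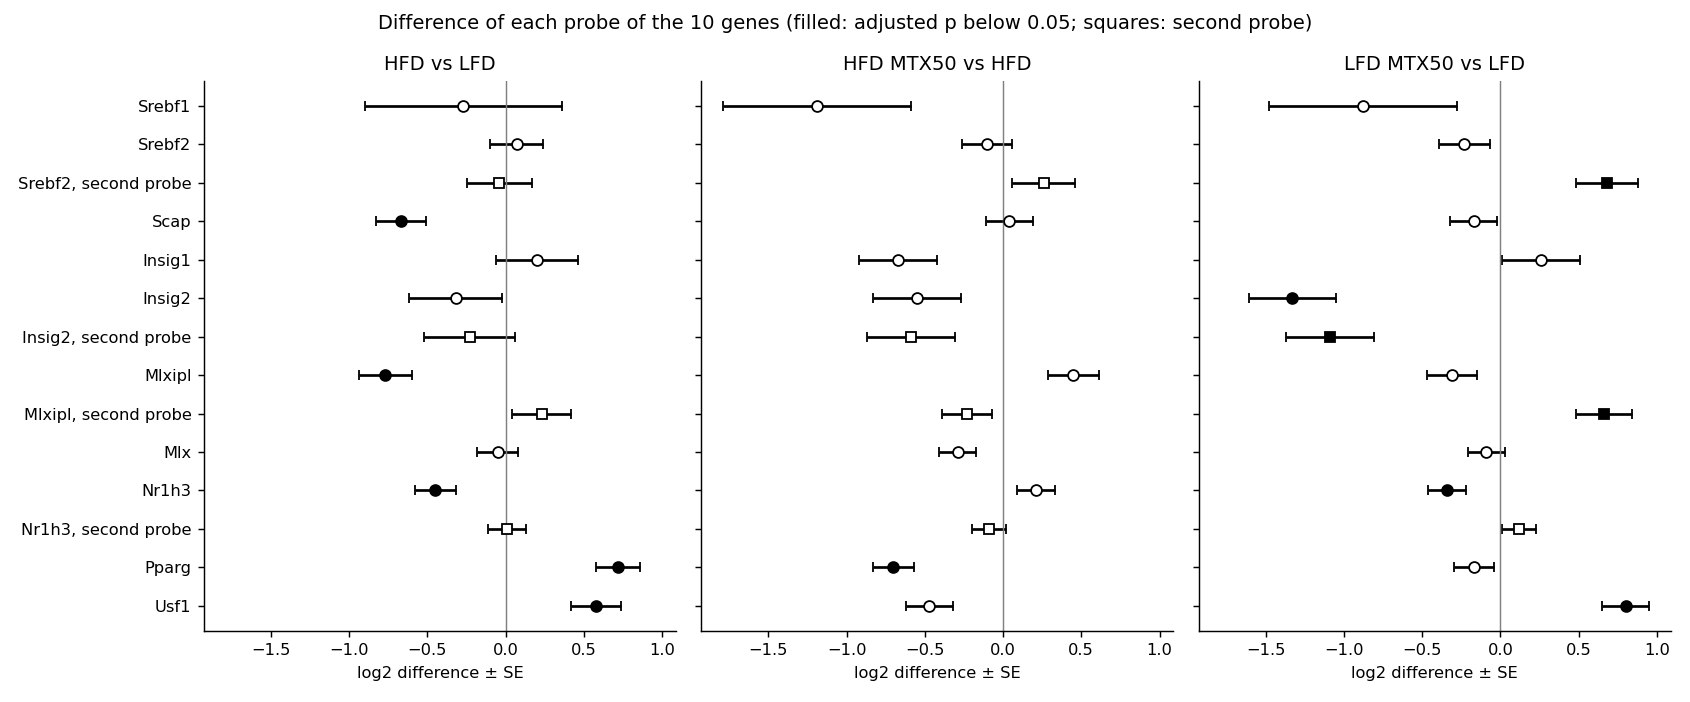
Log2 differences with SE for all 14 probes with diet (HFD minus LFD) and with methotrexate in each diet, where filled symbols had an adjusted p below 0.05 and squares are dimmer probes. Pparg is at 0.72 with diet and −0.70 with methotrexate in HFD, and Insig2 lies lowest of the called values at −1.33 in LFD MTX50 vs LFD.

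Srebf1, the source of SREBP-1c, did not pass the test in any comparison. Its SD was larger in the treated groups, a difference in spread that was not tested. In the untreated groups, LFD mice 1 to 4 had levels of −0.72, −0.13, −0.57 and −0.02 and HFD mice 1 to 4 had −0.84, −0.57, −0.58 and −0.53. In the treated groups, LFD MTX50 mice 1 to 5 had −0.84, −1.19, −2.86, 0.49 and −1.81, and HFD MTX50 mice 1 to 5 had −2.36, −3.75, −1.58, −0.67 and −0.73. LFD MTX50 mouse 3 and HFD MTX50 mouse 2 lay lowest, and in each treated group some mice stayed within or near the untreated levels. The SD was 0.33 in LFD and 0.14 in HFD, and 1.23 in LFD MTX50 and 1.28 in HFD MTX50. The difference of HFD MTX50 from HFD was −1.19 ± 0.60 (SE, adjusted p = 0.183), with a 95% interval of −2.44 to 0.07, so that a fall of over 1 log2 unit and no difference both lie within it. LFD MTX50 differed from LFD by −0.88 ± 0.60 (adjusted p = 0.266, interval −2.14 to 0.38). On the slide that HFD and HFD MTX50 share, with 2 mice of each, the difference was −2.50 (adjusted p = 0.0588). The diets differed by −0.27 ± 0.63 (adjusted p = 0.763). That SE comes from a spread pooled over all groups, so it carries the larger SDs of the treated mice. The exact permutation p of the 2 untreated groups, which does not use the treated mice, was 0.229.

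Srebf2, the source of SREBP-2, moved little on its brightest probe, with group means of −0.45 ± 0.14 (SD, n = 4) in LFD, −0.68 ± 0.30 (n = 5) in LFD MTX50, −0.38 ± 0.23 (n = 4) in HFD and −0.48 ± 0.25 (n = 5) in HFD MTX50. No comparison passed, and the interval of LFD MTX50 minus LFD ran from −0.57 to 0.11. The dimmer probe read otherwise. In LFD mice 1 to 4 it was at −3.79, −3.98, −3.47 and −3.69, and in LFD MTX50 mice 1 to 5 at −2.56, −2.87, −3.06, −3.89 and −2.87. All treated mice but mouse 4 lay above the LFD mice, and this probe rose by 0.68 ± 0.20 (adjusted p = 0.0196, exact permutation p = 0.0476). The call was lost without LFD mouse 2 (adjusted p = 0.0643), with quantile normalization (0.46, adjusted p = 0.0967), in a fit of these groups alone (adjusted p = 0.0588) and once slides entered as random blocks (adjusted p = 0.147), and the median change of probes of like brightness was 0.25, whose part in the result was not tested.

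Scap, the escort of the SREBPs, fell with the diet. LFD mice 1 to 4 had 3.01, 2.95, 3.06 and 2.71, and HFD mice 1 to 4 had 2.43, 2.37, 2.12 and 2.14. Every HFD mouse lay below every LFD mouse, a 1.59-fold lower level (−0.67 ± 0.16, adjusted p = 0.00806, exact permutation p = 0.0286, the smallest that 4 against 4 mice can give). Methotrexate left the level in HFD near that of untreated HFD mice, with HFD MTX50 mice 1 to 5 at 2.10, 2.27, 2.50, 2.52 and 2.15, a difference of 0.04 ± 0.15 (adjusted p = 0.866) and an interval of −0.27 to 0.35. LFD MTX50 mice 1 to 5 had 2.55, 3.29, 2.60, 2.78 and 2.62, −0.17 ± 0.15 from LFD (adjusted p = 0.393). Between the treated groups Scap was lower in HFD MTX50 by 0.46 ± 0.14 (adjusted p = 0.0348, exact permutation p = 0.00794). That call was lost without LFD MTX50 mouse 2 or 4 or HFD MTX50 mouse 1, 2 or 5 (adjusted p up to 0.0787), with median scaling (adjusted p = 0.0647) and once slides entered as random blocks (adjusted p = 0.203). Scap was also the only gene of the 10 that differed between HFD MTX50 and LFD (−0.63 ± 0.15, adjusted p = 0.0215), a call lost without LFD mouse 2 or 3 (adjusted p up to 0.0691). The Scap call of HFD vs LFD stayed past the threshold without each array in turn (adjusted p 0.00533 to 0.0339), and with quantile normalization the difference was −0.55 (adjusted p = 0.0209). Scap is among the brightest 10% of probes, whose median change with diet was −0.23, and the part of this in the result was not tested.

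Insig1, the Scap retention factor that is itself an SREBP target, had a narrow range in LFD, with mice 1 to 4 at −1.11, −1.03, −1.0 and −1.03. HFD mice 1 to 4 had −1.11, −0.53, −1.12 and −0.60, and HFD MTX50 mice 1 to 5 had −2.0, −2.27, −1.03, −1.22 and −1.05. HFD MTX50 mice 1 and 2 lay apart below all other mice, and they are the pair hybridised on the slide that this group shares with HFD mice 3 and 4. The difference of −0.67 ± 0.25 in HFD MTX50 vs HFD missed the threshold (adjusted p = 0.0845, exact permutation p = 0.119), with an interval of −1.20 to −0.14. Within the shared slide it was −1.27 (adjusted p = 0.0128), −0.86 once slides entered the model as random blocks (adjusted p = 0.0391), and −1.27 with the slide as a fixed block, which did not pass (adjusted p = 0.0711). LFD MTX50 mice 1 to 5 had −0.35, −0.57, −1.25, −0.68 and −1.06, and Insig1 did not change with methotrexate past the threshold in this diet (0.26 ± 0.25, adjusted p = 0.438). Between the treated groups it was lower in HFD MTX50, by 0.73 ± 0.24 (adjusted p = 0.0439), although the groups overlapped and the exact permutation p was 0.0714. That call was lost without any of 12 of the 18 arrays, with quantile normalization (adjusted p = 0.0572) and with median scaling (adjusted p = 0.0668).

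Insig2, the other retention factor, had the largest called log2 difference among the 10 genes, and both of its probes fell in LFD MTX50. LFD mice 1 to 4 had 3.74, 3.78, 4.03 and 4.12 on the brightest probe, and LFD MTX50 mice 1 to 5 had 1.56, 2.85, 2.14, 2.80 and 3.60. All treated LFD mice lay below all LFD mice, with mouse 1 lowest and mouse 5 close to the untreated range. The level fell 2.52-fold (−1.33 ± 0.28, adjusted p = 0.005, exact permutation p = 0.0159). The dimmer probe fell 2.13-fold (−1.09 ± 0.28, adjusted p = 0.0108), and the 2 probes correlated at 0.97 over the 18 mice. In HFD, mice 1 to 4 had 3.65, 3.55, 3.87 and 3.32, and HFD MTX50 mice 1 to 5 had 3.03, 3.35, 2.77, 3.15 and 2.92. These levels overlapped only at 1 mouse of each group, and the difference of −0.55 ± 0.28 missed the threshold (adjusted p = 0.194, exact permutation p = 0.0238). The effects in the diets differed by 0.78 ± 0.40, which did not pass (adjusted p = 0.150). The fall in LFD MTX50 stayed past the threshold without each array in turn (adjusted p 0.00168 to 0.0169) and with quantile normalization (−1.20, adjusted p = 0.0109), but not once slides entered as random blocks (−1.19, adjusted p = 0.0899).

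Mlxipl, the source of ChREBP, was read differently by its 2 probes. On the brightest probe LFD mice 1 to 4 had 4.44, 4.31, 4.19 and 4.53, and HFD mice 1 to 4 had 3.81, 3.64, 3.40 and 3.55. The diet groups did not overlap, and the level fell 1.70-fold in HFD (−0.77 ± 0.17, adjusted p = 0.00688, exact permutation p = 0.0286). LFD MTX50 mice 1 to 5 had 4.17, 3.86, 3.75, 4.41 and 4.08, and HFD MTX50 mice 1 to 5 had 3.54, 4.00, 4.18, 4.14 and 4.4. The means of the treated groups were 4.05 ± 0.26 and 4.05 ± 0.32 (SD, n = 5), and their difference on this probe was 0.00 ± 0.15. In HFD the difference with methotrexate was 0.45 ± 0.16 (adjusted p = 0.0735) and in LFD −0.31 ± 0.16 (adjusted p = 0.148). Neither passed, while the effects differed from each other by 0.77 ± 0.23 (adjusted p = 0.0228), a call lost without HFD mouse 3 (adjusted p = 0.0565), with quantile normalization (0.50, adjusted p = 0.0857) and with the mean of both probes (0.11, adjusted p = 0.708). The probe is among the brightest 10%, whose median log2 difference with diet was −0.23, and the part of this in the result was not tested.

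The dimmer Mlxipl probe did not pass in the diet comparison (0.23 ± 0.19, adjusted p = 0.358). LFD mice 2 to 4 had 2.97, 3.08 and 3.16, mouse 1 being left out as an outlier spot, and LFD MTX50 mice 1 to 5 had 3.68, 3.88, 4.05, 3.63 and 3.45. All treated mice lay above the 3 LFD mice, and this probe rose 1.58-fold (0.66 ± 0.18, adjusted p = 0.015, exact permutation p = 0.0179). In HFD the difference was −0.23 ± 0.16 (adjusted p = 0.343), and the effects in the diets differed by −0.90 ± 0.24 (adjusted p = 0.0161), opposite in sign to the brightest probe. HFD MTX50 mice 1 to 5 had 3.38, 3.36, 2.99, 2.59 and 3.02, all below the LFD MTX50 mice, and the treated groups differed on this probe by −0.67 ± 0.15 (adjusted p = 0.0137, exact permutation p = 0.00794), a call that held without each array in turn. The outlier spot of LFD mouse 1 decided some of these values: with outlier spots kept, the difference between the effects was −1.71 (adjusted p = 0.0731), the rise in LFD MTX50 was 1.48 (adjusted p = 0.0339), and the treated groups no longer passed (−0.67, adjusted p = 0.320). The rise in LFD MTX50 was lost without LFD mouse 2 (adjusted p = 0.0569). The 2 probes correlated at −0.32 over the mice. An exact permutation test of the gap between probes, run for 4 genes and 4 pairs of groups, gave adjusted p-values of 0.0848 or more, so that no gap passed over these 16 tests. Even 4 against 4 mice can give no exact p below 0.0286, so this does not show that the probes agree. For Mlxipl the gap changed by −0.97 in HFD vs LFD (exact permutation p = 0.0571, adjusted p = 0.102). It changed by −0.95 in LFD MTX50 vs LFD (exact permutation p = 0.0357, adjusted p = 0.0952). The gap ran from 1.11 to 1.37 in the 3 LFD mice, from −0.03 to 0.78 in HFD and from −0.3 to 0.79 in LFD MTX50.

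**Figure D3:**
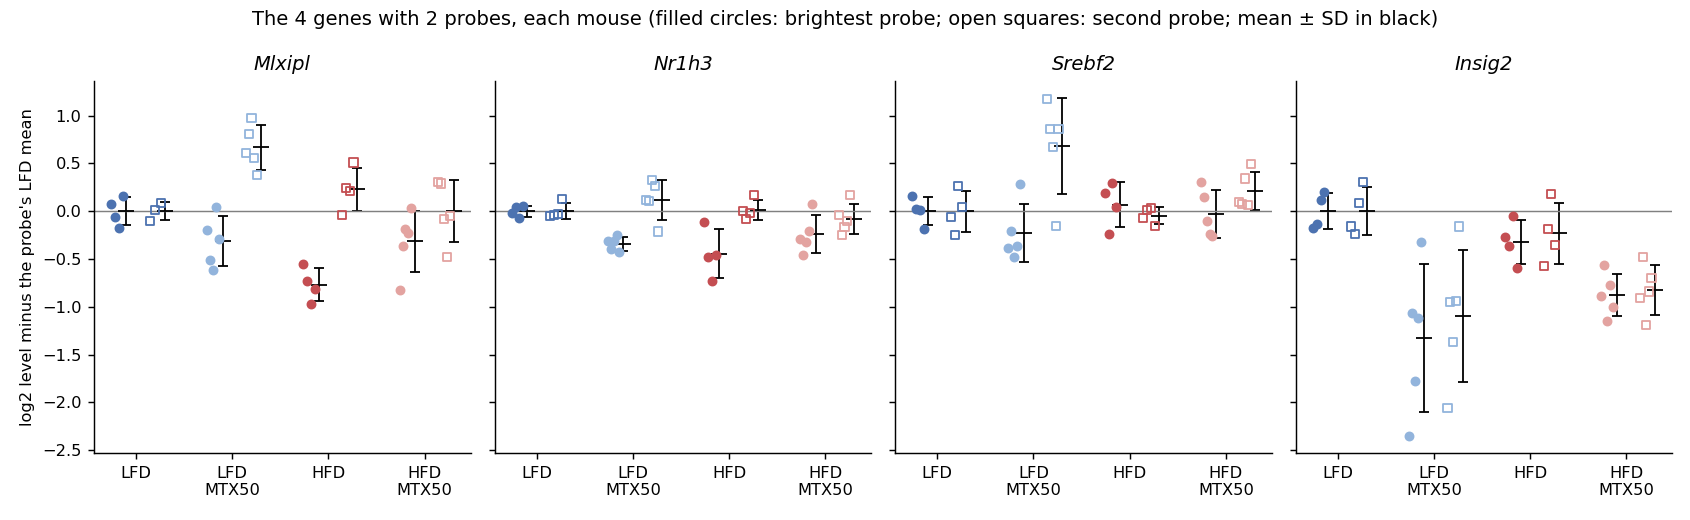
Levels of the 2 probes of Mlxipl, Nr1h3, Srebf2 and Insig2 in each mouse, by group, as log2 level minus the LFD mean of the same probe. Filled circles are the brightest probe, open squares the dimmer probe, and black bars the mean and SD. Over the mice the 2 probes correlated at 0.97 for Insig2, −0.33 for Srebf2, −0.32 for Mlxipl and 0.20 for Nr1h3.

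Mlx, the DNA-binding partner of ChREBP, stayed within −1.24 to −0.54 in all 18 mice. Its means were −0.69 ± 0.15 (SD, n = 4) in LFD, −0.78 ± 0.15 (n = 5) in LFD MTX50, −0.74 ± 0.03 (n = 4) in HFD and −1.02 ± 0.25 (n = 5) in HFD MTX50. The difference of HFD MTX50 from HFD, −0.29 ± 0.12, did not pass (adjusted p = 0.116), with 4 of the 5 treated mice below all HFD mice and mouse 5 above them.

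Nr1h3, which encodes LXR alpha, was highest in LFD, where mice 1 to 4 had 3.28, 3.34, 3.23 and 3.35. HFD mice 1 to 4 had 3.19, 2.82, 2.57 and 2.84, and LFD MTX50 mice 1 to 5 had 2.99, 2.90, 2.99, 3.05 and 2.87. Both groups lay wholly below LFD, by 0.45 ± 0.13 for the diet (adjusted p = 0.0171) and by 0.34 ± 0.12 for methotrexate in LFD (adjusted p = 0.0409). HFD MTX50 mice 1 to 5 had 3.01, 2.84, 2.98, 3.09 and 3.38, and the difference of 0.21 ± 0.12 from HFD did not pass (adjusted p = 0.239). The effect of methotrexate differed between the diets by 0.55 ± 0.17 (adjusted p = 0.0254). That call was lost without HFD mouse 3 or 4 (adjusted p up to 0.0635) and with quantile normalization (0.33, adjusted p = 0.134). It was also lost once slides entered as random blocks (adjusted p = 0.0848) and with the mean of both probes (0.17, adjusted p = 0.405). The dimmer probe had the opposite sign and did not pass (−0.21, adjusted p = 0.318). The diet call was lost without HFD mouse 3 (adjusted p = 0.0700) and the LFD MTX50 call without any of 10 arrays (adjusted p up to 0.0926), and neither passed with quantile normalization (adjusted p = 0.0759 and 0.138) or with the mean of both probes (adjusted p = 0.139 and 0.434). The dimmer Nr1h3 probe did not change past the threshold, at 0.01 ± 0.12 for the diet (adjusted p = 0.934) and 0.12 ± 0.11 for LFD MTX50 (adjusted p = 0.414). The brightest Nr1h3 probe is among the brightest 10% of probes, with medians of −0.23 for the diet and −0.06 for LFD MTX50, and Nr1h3 is also expressed by Kupffer cells. The summed level of 6 Kupffer and macrophage markers ran from 4.8 to 5.42 in LFD, 4.31 to 5.24 in HFD, 4.44 to 4.82 in LFD MTX50 and 5.05 to 5.60 in HFD MTX50. Of the 6, 1 fell in HFD vs LFD (Timd4) and 1 in LFD MTX50 vs LFD (Cd68), and the part of brightness or of these cells in the Nr1h3 result was not tested.

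Pparg was the only gene of the 10 that passed both for the diet and for methotrexate in HFD, rising in HFD and falling with treatment to levels near those of LFD. LFD mice 1 to 4 had 0.17, 0.22, 0.41 and 0.01, and HFD mice 1 to 4 had 0.77, 0.94, 1.01 and 0.96. All HFD mice lay above all LFD mice, a 1.64-fold rise (0.72 ± 0.14, adjusted p = 0.0043, exact permutation p = 0.0286). HFD MTX50 mice 1 to 5 had 0.37, 0.19, 0.27, 0.52 and −0.24, all below the HFD mice, a 1.62-fold fall (−0.70 ± 0.13, adjusted p = 0.00903, exact permutation p = 0.00794, the smallest that 4 against 5 mice can give). HFD MTX50 differed from LFD by 0.02 ± 0.13 (adjusted p = 0.947), with an interval of −0.26 to 0.30, so a remaining difference of either sign within those bounds could not be detected with these mice. LFD MTX50 mice 1 to 5 had 0.00, 0.15, 0.12, 0.09 and −0.20, and the difference from LFD, −0.17 ± 0.13, did not pass (adjusted p = 0.330, interval −0.45 to 0.11). The effect of methotrexate was more negative in HFD than in LFD by 0.53 ± 0.19 (adjusted p = 0.0465), but this call was lost without any of 13 arrays (adjusted p up to 0.0940) and with median scaling (−0.39, adjusted p = 0.127).

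Both main Pparg calls stayed past the threshold without each array in turn, at adjusted p-values of 0.00168 to 0.0196 for the diet and 0.00605 to 0.0417 for methotrexate in HFD. Within the slide that holds both groups the difference was −0.70 (adjusted p = 0.0439), and with the slide as a fixed block it was the same size but did not pass (−0.70, adjusted p = 0.164), nor did it in a fit of these groups alone (adjusted p = 0.0716). Once slides entered as random blocks the diet difference was 0.71 (adjusted p = 0.0556) and the treatment difference −0.70 (adjusted p = 0.0136). The summed level of 5 adipocyte markers ran from −1.47 to −0.93 in LFD, 2.06 to 2.74 in HFD, −0.67 to 0.67 in HFD MTX50 and −1.05 to −0.25 in LFD MTX50, but its members did not move as 1 group. In HFD, Cfd, Lep and Plin1 rose, Retn did not pass, and Adipoq, which defines adipocytes, had means of −4.46 in LFD and −4.50 in HFD (adjusted p = 0.901). In HFD MTX50 vs HFD only Cfd fell past the threshold, while Adipoq rose by 0.88 (adjusted p = 0.0163). In LFD MTX50, where Pparg did not pass, Plin1, Adipoq and Lep rose by 0.66, 0.68 and 1.46 (adjusted p = 0.00434, 0.0200 and 0.00789). Plin1 and Adipoq are dim, and probes about as bright had median changes of 0.42 and 0.33 with methotrexate in LFD. With the diet these medians were 0.40 and 0.34, and with methotrexate in HFD they were −0.17 and −0.15. The part of brightness in the values of these markers was not tested. Cfd is also on the list of PPAR gamma targets below. The part of adipocyte RNA in the Pparg result was not tested.

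Usf1, the E-box factor, was the dimmest of the 10 genes. LFD mice 1 to 4 had −5.83, −5.84, −6.06 and −6.25, LFD MTX50 mice 1 to 5 had −5.21, −5.28, −5.01, −5.16 and −5.34, and HFD mice 1 to 4 had −5.54, −5.71, −5.11 and −5.29. Both groups lay above all LFD mice. The rise was 1.74-fold in LFD MTX50 (0.80 ± 0.15, adjusted p = 0.00281) and 0.58 ± 0.16 on the log2 scale in HFD (adjusted p = 0.0145). HFD MTX50 mice 1 to 5 had −5.59, −5.90, −5.63, −6.23 and −6.04, a difference of −0.47 ± 0.15 from HFD that missed the threshold (adjusted p = 0.0528) and a fall of 0.68 ± 0.14 from LFD MTX50 (−0.68, adjusted p = 0.00908). The effects in the diets differed by −1.26 ± 0.21 (adjusted p = 0.00477). Probes as dim as Usf1 moved the same way, with medians of 0.40 for the diet, 0.42 for LFD MTX50, −0.17 for HFD MTX50 and −0.58 for the difference, and their part in the result was not tested. With quantile normalization the Usf1 differences were 0.22 for the diet (adjusted p = 0.292) and 0.36 for LFD MTX50 (adjusted p = 0.0848), while the difference between the effects stayed past the threshold (−0.68, adjusted p = 0.0319). With normexp background modelling HFD MTX50 lay above LFD MTX50 instead, by 0.81 (adjusted p = 0.560).

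The genes around these regulators were counted by lists, each with a median to set beside 0.08, −0.04 and 0.10 over all genes for the diet, for methotrexate in HFD and for methotrexate in LFD. In these 3 comparisons, in that order, 18%, 4.83% and 17.6% of all genes rose, and 10.4%, 6.13% and 10.5% fell. A count of 1 or 2 genes is not read here as a result about its list. Of 15 SREBP-1c targets 0 rose in any of these comparisons. In HFD 4 fell (median −1.0), in HFD MTX50 vs HFD 4 fell (median −1.10) and in LFD MTX50 vs LFD 9 fell (median −1.40). Acly, the source of cytosolic acetyl-CoA, fell in HFD by 0.95 ± 0.28 (adjusted p = 0.0221) and in LFD MTX50 by 1.23 ± 0.27 (adjusted p = 0.00559). The desaturase Fads2 differed with methotrexate by −1.18 ± 0.25 in HFD (adjusted p = 0.0126) and by −1.15 ± 0.25 in LFD (adjusted p = 0.0052). The elongase Elovl5 differed by −1.27 ± 0.40 (adjusted p = 0.0488) and −1.91 ± 0.40 (adjusted p = 0.00451) in the same order. Pnpla5, a lipase of the patatin family, was lower by 3.47 ± 0.79 in HFD (−3.47, adjusted p = 0.00766). Its mean level was −4.35 in LFD and −7.82 in HFD. The HFD mean lies below the lowest Usf1 level (−6.25), so the size of this fall rests on values near or within background.

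Of 12 ChREBP targets, 1 fell in HFD, 6 fell in HFD MTX50 vs HFD, and 4 fell and 1 rose in LFD MTX50 vs LFD, with medians of −0.31, −0.35 and −0.33. Khk, the ketohexokinase that starts fructose breakdown, fell in all 3 comparisons, at −0.64 ± 0.21, −0.68 ± 0.20 and −0.79 ± 0.20 (adjusted p = 0.0330, 0.0381 and 0.0106). Gpd1, which makes glycerol phosphate, differed with methotrexate by −0.81 ± 0.19 in HFD (adjusted p = 0.0194) and −0.99 ± 0.19 in LFD (adjusted p = 0.00348). G6pc, the last enzyme of glucose release, differed by −1.14 ± 0.34 (adjusted p = 0.0412) and −1.21 ± 0.34 (adjusted p = 0.0176) in these comparisons. The arrestin-like Arrdc4 alone rose, by 1.00 ± 0.13 in LFD MTX50 (adjusted p = 0.000471). The count of 6 in HFD MTX50 vs HFD became 3 with median scaling and 2 within the shared slide.

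Of 16 SREBP-2 targets only 1 call was made in the 3 comparisons, a rise in LFD MTX50 that was lost with quantile normalization. The list medians were −0.05, −0.30 and 0.14. Mvd, an enzyme of the mevalonate pathway, differed with methotrexate by −0.70 in HFD (adjusted p = 0.0953), and Sc5d, a late enzyme of cholesterol synthesis, by −0.66 in LFD (adjusted p = 0.0983). Of 11 LXR targets 2 fell in HFD and 2 in LFD MTX50, and 0 passed in HFD MTX50 vs HFD, with medians of −0.24, 0.18 and −0.13. Pltp, the phospholipid transfer protein, fell by 1.44 ± 0.38 in HFD (adjusted p = 0.0138) and by 1.70 ± 0.36 in LFD MTX50 (adjusted p = 0.00496). The cholesterol exporter Abca1 was lower by 0.63 ± 0.17 in HFD (−0.63, adjusted p = 0.0135), and Arl4c, a small GTPase, by 0.59 ± 0.18 in LFD MTX50 (−0.59, adjusted p = 0.0243).

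Of 10 PPAR gamma targets, 6 rose in HFD (median 1.28), 5 fell in HFD MTX50 vs HFD (median −0.89), and 3 fell in LFD MTX50 vs LFD (median −0.32). Cidea, a lipid droplet protein, rose in HFD by 4.17 ± 0.70 (adjusted p = 0.00289) and fell with methotrexate by 3.36 ± 0.67 (−3.36, adjusted p = 0.00981). Cidec, its relative, rose by 1.32 ± 0.22 (adjusted p = 0.00274) and fell by 0.95 ± 0.21 (adjusted p = 0.0139). Mogat1, which makes diacylglycerol, rose by 2.33 ± 0.47 (adjusted p = 0.00469) and fell by 1.88 ± 0.44 in HFD (adjusted p = 0.0191) and 1.93 ± 0.44 in LFD (adjusted p = 0.00696). Cfd, an adipocyte-secreted protease, rose by 5.99 ± 0.92 (adjusted p = 0.00253) and fell by 5.32 ± 0.87 (adjusted p = 0.00665).

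Of 20 partner and processing genes, 2 rose and 5 fell in HFD (median −0.34), 2 rose in HFD MTX50 vs HFD (median 0.13), and 1 rose and 5 fell in LFD MTX50 vs LFD (median −0.14). Rnf139, a ubiquitin ligase of the endoplasmic reticulum, fell in HFD by 0.73 ± 0.13 (adjusted p = 0.00349). Fbxw7, which marks nuclear SREBP for degradation, was also lower in HFD by 0.52 ± 0.13 (−0.52, adjusted p = 0.0107). Rnf139 and Fbxw7 were the pair that rose in HFD MTX50 vs HFD, each by 0.46 (adjusted p = 0.0325 and 0.0291). Erlin1, part of an Insig degradation complex, fell in LFD MTX50 by 0.65 ± 0.16 (adjusted p = 0.00899), as did Rnf139 (−0.52 ± 0.13, adjusted p = 0.00897). The pair that rose in HFD, named after their values were seen, were Nr1h2, which encodes LXR beta, by 0.39 ± 0.12 (adjusted p = 0.0245) and Rxra, the shared partner of LXR and PPAR gamma, by 0.26 ± 0.09 (adjusted p = 0.0465). With median scaling this count of 2 became 0.

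Once slides entered as random blocks, the diet comparison gave calls for 3 PPAR gamma targets (higher) and 1 partner gene (lower), methotrexate in LFD for 1 ChREBP target (higher), and methotrexate in HFD for 5 SREBP-1c, 5 ChREBP and 5 PPAR gamma targets (lower) and 3 partner genes (higher). The SREBP-1c count of 4 in HFD was 9 in a fit of these groups alone, and the ChREBP count of 1 in HFD was 5 in that fit and 5 with median scaling. In HFD MTX50 vs HFD, the falling SREBP-1c, ChREBP and PPAR gamma targets numbered 4, 6 and 5. Each of these counts was 0 in a fit of those groups alone. Each was also 0 when slide was modelled as a fixed block. The 2 rising partner genes of this comparison were likewise lost in both fits. Several of the counts also rested on single mice. Among the SREBP-1c targets, the 4 that fell in HFD became 2 without LFD mouse 3 and 1 without HFD mouse 4. The 4 that fell in HFD MTX50 vs HFD became 0 without HFD mouse 3, 1 without HFD mouse 2 or 4, and 2 without HFD MTX50 mouse 1 or 2. The 9 that fell in LFD MTX50 became 4 without LFD mouse 3 and 5 without LFD mouse 2 or LFD MTX50 mouse 1 or 3. Without each array in turn, the number of SREBP-1c targets called lower in LFD MTX50 varied from 4 to 11 and none was called higher. The 6 ChREBP targets in HFD MTX50 vs HFD became 0 without HFD mouse 3 or 4, 1 without HFD mouse 2, 2 without HFD MTX50 mouse 2 and 3 without HFD MTX50 mouse 3, and the 1 in HFD ranged from 0 (without HFD mouse 4 or any LFD mouse) to 4 (without LFD MTX50 mouse 4). The 5 PPAR gamma targets that fell in HFD MTX50 vs HFD became 2 without HFD mouse 3 or 4, whereas the 6 that rose in HFD stayed at 5 or 6. The LXR target counts of 2 became 1 without HFD mouse 3 or 4 in HFD, and without LFD mouse 1 or 2 or LFD MTX50 mouse 3 in LFD MTX50. The partner genes that rose ranged from 0 to 2 in HFD and from 0 to 4 in HFD MTX50 vs HFD, those that fell in LFD MTX50 were 3 without LFD mouse 2, and the SREBP-2 targets that rose in LFD MTX50 ranged from 0 to 3.

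**Figure D4:**
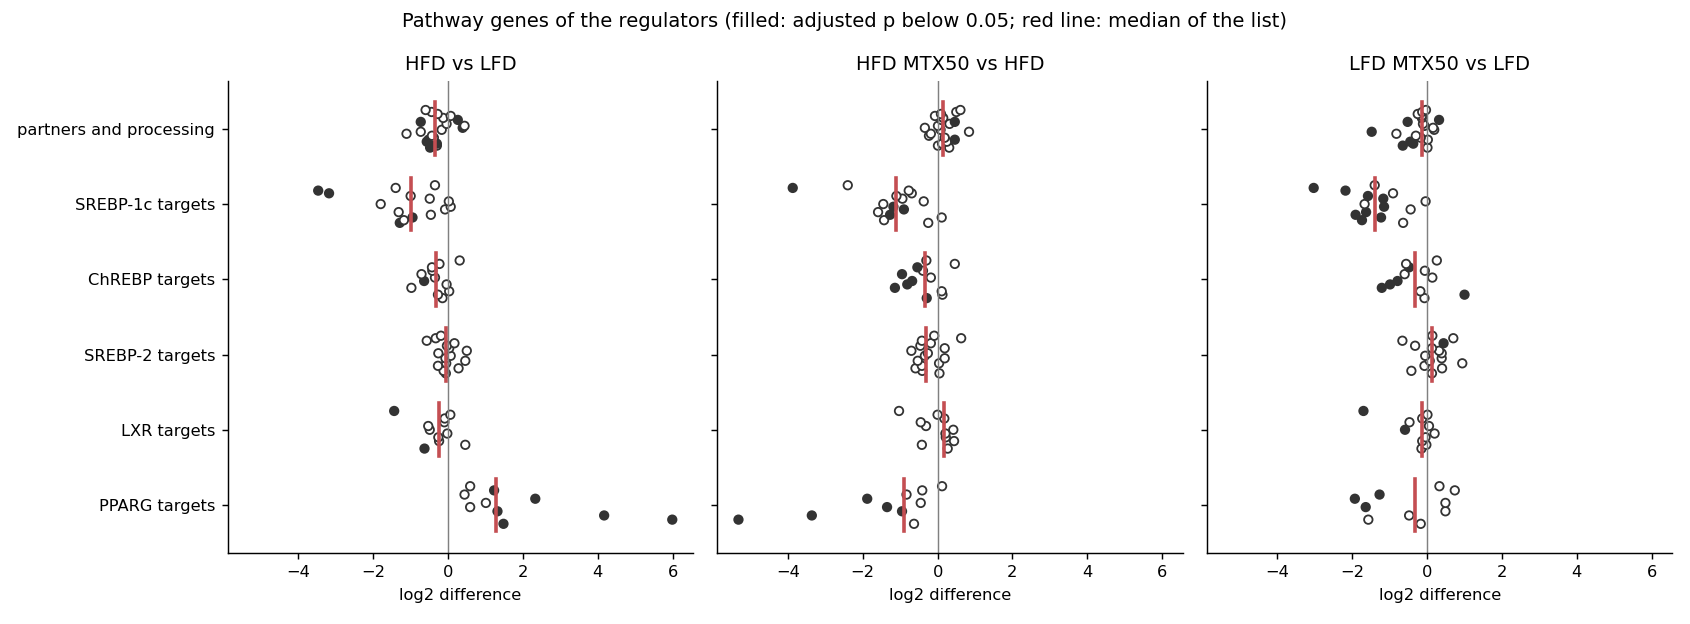
Genes of the 6 lists with diet (HFD minus LFD) and with methotrexate in each diet: each point is the log2 difference of a gene on its brightest probe, filled where the adjusted p is below 0.05, with the median of the list as a line. The PPAR gamma targets lie at a median of 1.28 in HFD vs LFD and −0.89 in HFD MTX50 vs HFD, and the SREBP-1c targets have medians below 0 in all 3 comparisons, at −1.0, −1.1 and −1.4.

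The mean level of the 15 SREBP-1c targets was then set beside each regulator, mouse by mouse. It was 1.95, 1.90, 2.37 and 1.80 in LFD mice 1 to 4 and 0.41, 1.10, 1.29 and 0.71 in HFD mice 1 to 4. It was 0.21, 1.73, −0.46, 1.64 and 0.00 in LFD MTX50 mice 1 to 5 and −0.73, −1.13, −0.40, 0.16 and 0.46 in HFD MTX50 mice 1 to 5. LFD MTX50 mice 2 and 4 stayed close to LFD while mice 1, 3 and 5 lay far below, and mouse 3 was the lowest of its group for Srebf1 as well. Other mice did not keep this order: LFD MTX50 mouse 2 had the highest target mean of its group but a lower Srebf1 level (−1.19) than mouse 1 (−0.84).

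**Figure D5:**
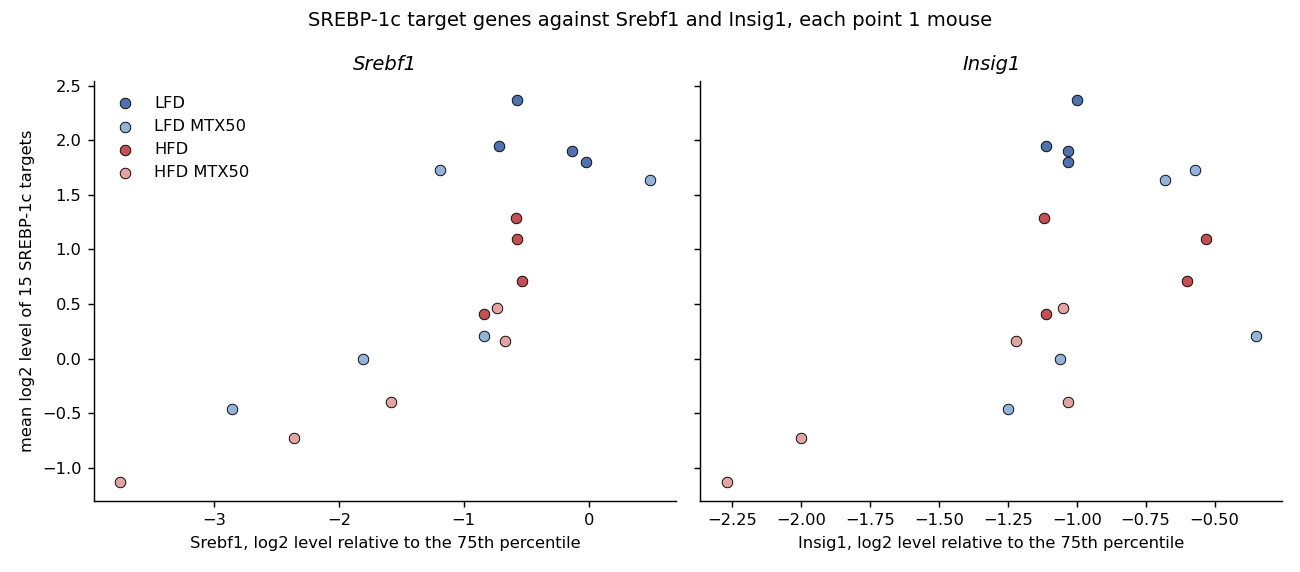
Level of Srebf1 (left, x axis) or Insig1 (right, x axis) and mean level of the 15 SREBP-1c targets (y axis) in each mouse, both as log2 relative to the 75th percentile of the array, coloured by group. The mice lowest in Srebf1, HFD MTX50 mouse 2 (−3.75) and LFD MTX50 mouse 3 (−2.86), are also the lowest of their groups in the target mean, at −1.13 and −0.46.

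Taken as deviations from the group means over the 18 mice, Srebf1 followed the target mean most closely (r = 0.76, rho = 0.60, permutation p = 0.0055 and 0.042). Over the 10 genes tested the adjusted p-values were 0.055 and 0.27, so the relation did not pass. It was 0.61 (adjusted p = 0.53) without the 2 mice farthest from the median of Srebf1. It was 0.67 (adjusted p = 0.66) over 17 mice as deviations from the means of group and slide. Insig1 followed at r = 0.58 (rho = 0.54, permutation p = 0.04 and 0.055, adjusted p = 0.20 and 0.27), and r lay between −0.28 and 0.49 for the other 8 genes. Among the regulators themselves, the closest of the 45 pairs was Srebf1 with Insig1 (r = 0.76, rho = 0.79), followed by Srebf1 with Mlxipl (r = 0.61, rho = 0.64). The most opposed pair was Srebf2 with Insig1 (r = −0.60, rho = −0.63). These pair values are descriptions over 18 mice that share their arrays.

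Genes with the most similar levels over the 18 arrays were looked up among 17517 genes, with no removal of group means. For Pparg they were Osbpl3 (r = 0.968), Adgrv1 (0.949) and Cutal (0.927), and for Mlxipl Kmt2b (0.961), Lypla2 (0.911) and Zbtb8os (0.911). For Srebf1 they were Map3k4 (0.903), Anks4b (0.879) and Derl2 (0.877), and for Insig1 Aldh2 (0.832), Ebp (0.810), an enzyme of cholesterol synthesis, and Exoc7 (0.806). The nearest gene was Cltb for Nr1h3 (0.923), Tmem191c for Usf1 (0.937), A330070K13Rik for Srebf2 (0.894), Dffb for Scap (0.861), Gpatch11 for Mlx (0.848) and Arhgef3 for Insig2 (0.817). The 10 members themselves were left out of this search.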

How the data were processed

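Liver RNA of 18 mice was hybridised to 18 one-colour Agilent 4×44K arrays. The deposited values are spot intensities from which the authors had Agilent Feature Extraction 10.7.3.1 subtract the background and remove trends within each array, with no normalization between arrays. The deposited table of the series holds the background-subtracted intensity of the same scans, rounded, and was used as an alternative. Per the labels RNA was taken up in Trizol, cleaned with RNeasy and amplified with the Low RNA Input Linear Amplification Kit PLUS, while the methods of the study mention only RNeasy and a Quick Amp kit.

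From the log2 processed signal the 75th percentile of the array was subtracted. The software marked 124 to 294 spots per array as outliers, which were dropped, and 0 as saturated, and repeated spots were averaged. A probe was kept if well above background on at least 4 arrays. This left 35738 probes, of which 347 lack a value on some array. Names came from a RefSeq table of GRCm38.p6, which gave a gene to 28025 of 39429 probes (71.1%), and 19597 genes were tested. The array design follows an older build, so no probe coordinates are given. A software flag of each spot, a deposited score of 0 or 1, marked it as well above background, outlier or saturated.

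limma 3.58.1 in R 4.3.3 fitted the 4 groups in 1 model with empirical Bayes tests, two-sided, and Benjamini-Hochberg adjustment over all kept probes, and the code was tested on simulated data. Exact permutation tests of group means were two-sided. The relation to the target mean used 100000 permutations of mice within groups. The number of mice limits the precision, and p-values measure the spread between these mice. Named genes were the 10 members with every probe, the 4 genes of each list with the smallest adjusted p in any of the 3 main comparisons, and the 3 genes most similar to each member; some of these are not reported here. Members and lists were chosen with earlier results of these data known. Slide and scan were read from the file headers: all arrays were scanned on 1 day, and HFD mice 3 and 4 share a slide with HFD MTX50 mice 1 and 2.

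Alternatives were normexp background modelling (offset 50, on the median spot signal, since the files used here have no mean signal), quantile normalization, median scaling, the rounded table, outlier spots kept, no filter or a filter on all 18 arrays, an intensity trend, only the groups compared, the methods' t-test, an unadjusted p up to 0.015 with 2-fold change, the slide as a random or fixed block or within the shared slide, a block for the replicate number, a gene's probes averaged, and leaving out each array. The comparisons of HFD MTX50 with LFD MTX50 and with LFD, the lists and the relation without each array were added to these alternatives after seeing the data.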

Additional observations from a re-analysis of the deposited data

Results flagged for a closer look

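The effect of methotrexate differed between the diets, by the test of the difference itself (effect in HFD minus effect in LFD, limma), for 5 of the 14 probes, on 4 of the 10 genes (26.8% of all genes passed this test). Mlxipl differed by 0.77 on its brightest probe (adjusted p = 0.0228) and by −0.90 on its dimmer probe (adjusted p = 0.0161), with opposite signs. Nr1h3 differed by 0.55 (adjusted p = 0.0254) on its brightest probe, but did not pass with the mean of both probes (0.17, adjusted p = 0.405). Pparg differed by −0.53 (adjusted p = 0.0465) and Usf1 by −1.26 (adjusted p = 0.00477).

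A single mouse lay far from the others of its group in 2 of 55 groups of values examined, and chance alone gives about 1 in 20. HFD mouse 1 had a Srebf1 level of −0.84, while the other 3 HFD mice lay within −0.58 to −0.53. LFD mouse 4 had a level of 1.43 on the dimmer Nr1h3 probe, above the other LFD mice.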

How the results depend on the processing

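Of 22 called results over the 14 probes and 6 comparisons, 21 kept their sign under every alternative and 11 stayed past the threshold without each array in turn. The exception in sign was Usf1 in HFD MTX50 vs LFD MTX50, 0.81 with normexp (adjusted p = 0.560). Normexp moved the median of all genes to 0.37, 0.38 and 0.46 in the 3 main comparisons and called 0 of the 10 genes in each, but also only 2, 0 and 318 genes of the whole table. In HFD MTX50 vs LFD normexp called 10324 genes. Over 2602 values of the 14 probes, 138 lost and 29 gained a call, and 75 uncalled values changed sign. The slide cannot be told apart from the group outside HFD MTX50 vs HFD, and Usf1 lies near background.

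The number of the 10 genes called in HFD vs LFD (5) was 3 with quantile normalization, 0 with normexp, 0 with the slide as a random block, 0 at an unadjusted p up to 0.015 with 2-fold change, and 3 to 5 without each array (3 without HFD mouse 3). In HFD MTX50 vs HFD (1) it was 0 with normexp, 0 with only the groups compared, 0 with the methods' t-test, 0 with the slide as a fixed block, 0 at the unadjusted p with 2-fold, 2 with the slide as a random block, 2 within the shared slide (Insig1 and Pparg), and 1 to 3 without each array (3 without HFD MTX50 mouse 1, and 2 without HFD mouse 1 or 2 or HFD MTX50 mouse 3 or 5). In LFD MTX50 vs LFD (3) it was 1 with quantile normalization (Insig2), 0 with normexp, 0 with the random slide, 1 at the unadjusted p with 2-fold, and 2 to 3 without each array. For the difference between the treatment effects (4) it was 1 with quantile normalization, 1 with the random slide and 1 at the unadjusted p with 2-fold (Usf1 each time), 2 with the mean of a gene's probes (Pparg and Usf1), 0 with normexp, and 1 to 5 without each array (1 without HFD mouse 3, 2 without HFD mouse 4). In HFD MTX50 vs LFD MTX50 (3) it was 1 with median scaling (Usf1), 0 with normexp, 0 with the random slide, 0 at the unadjusted p with 2-fold, and 1 to 4 without each array (1 without LFD MTX50 mouse 2 or 4 or HFD MTX50 mouse 1 or 2). In HFD MTX50 vs LFD (1) it was 5 with normexp, 0 with the random slide, 0 with the replicate block, 0 at the unadjusted p with 2-fold, and 0 to 2 without each array (0 without LFD mouse 2 or 3, 2 without LFD MTX50 mouse 1 or 5 or HFD MTX50 mouse 5). The SREBP-1c list's count of 9 in LFD MTX50 vs LFD was 3 with the methods' t-test. The relation of Srebf1 to the target mean had r of 0.68 to 0.86 without each array (adjusted p 0.0068 to 0.23), and passed when LFD mouse 2, 3 or 4, LFD MTX50 mouse 1, or LFD MTX50 mouse 2 was left out. The cause of these shifts was not tested. Fits of only the groups compared and the t-test give no value for the difference between the effects and were not run for HFD MTX50 vs LFD MTX50 or HFD MTX50 vs LFD.

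The replicate numbers do not pair the mice. Deviations from the group means correlated at −0.314 to 0.255 (median −0.0208) over 25 pairs with the same number and at a median of −0.0038 over 96 pairs with other numbers. With the replicate number as a block the counts were 5, 1, 3, 4, 2 and 0 in the order above, the last having lost Scap (adjusted p = 0.0580). Of the lists, the block moved the falling SREBP-1c targets in HFD MTX50 vs HFD from 4 to 1, the falling ChREBP targets from 6 to 1, the rising partner genes from 2 to 0, and the rising SREBP-2 targets in LFD MTX50 from 1 to 0.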
